A study of Mus musculus with 8 samples.

Results

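Chemokines, interleukins and their receptors were followed in the liver RNA of liver-specific Mettl14 knockout mice (genotype METTL14Alb, called KO) and of floxed METTL14f/f mice (called WT), all of them given tunicamycin. The set holds the 99 gene symbols, of 16133 in the deposited comparison, that begin with Ccl, Cxcl, Ccr, Cxcr or Il followed by a digit, without Ccrn4l. By role these were 20 CC and 12 CXC chemokine ligands, 8 CC and 6 CXC chemokine receptors, 15 interleukins, 34 interleukin receptor chains, 2 soluble inhibitors (Il1rn and Il18bp) and 2 others (the antisense transcript Il1bos and the enzyme gene Il4i1). Tunicamycin, an inhibitor of N-linked glycosylation that stresses the endoplasmic reticulum (ER), was injected intraperitoneally at 2 mg/kg for 24 hours in both genotypes. Mice without tunicamycin were not analysed here, so the comparison is of genotypes within the stressed liver.

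METTL14 works with METTL3 as the enzyme that places N6-methyladenosine (m6A) on mRNA. The label METTL14Alb and the description of these animals as liver knockouts refer to albumin-expressing cells, which are mainly hepatocytes. In which liver cells the gene was lost was not measured here. Polyadenylated RNA was sequenced as such (input) and as the fraction bound by an m6A antibody (IP), in 2 libraries each of KO input, KO IP, WT input and WT IP. Nothing in the labels tells whether both libraries of a group are different animals, and the p-values therefore cover the spread between libraries, which may be technical. The comparison bears on how METTL14 acts in the liver under ER stress, which the series' design text gives as its question.

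Chemokines are small secreted proteins that guide leukocytes through G-protein-coupled receptors, and the CC and CXC groups are named for the spacing of their first cysteines. Interleukins act through receptors built from a binding chain and a shared signalling chain: gp130 (Il6st) for the IL-6 family, the accessory chain Il1rap for IL-1 and IL-33, Il10rb for IL-10 and IL-22, and Il17ra for the IL-17 cytokines. In liver, Kupffer cells, endothelial cells and stellate cells make many of these ligands, while hepatocytes carry the receptors for IL-6 and IL-1 and answer with acute phase proteins.

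Of the 99 members, 72 had an adjusted p-value in the authors' deposited table, and 27 had none, all with a mean normalized count of at most 2.78. At an adjusted p under 0.05, 15 members were higher and 13 were lower in KO, which is 38.9% of those tested, against 42.5% of all 14257 tested genes. The background for each direction was 20.4% higher and 22.2% lower, so the share of members called was near that of the whole table. The median log2 change of the tested members was -0.04, and that of all tested genes was 0.046. Of the 28 called changes, 14 of the 15 rises and 11 of the 13 falls reached 2-fold. The same share over all called genes was not computed, so it is not known whether the members differ in this. Receptors made up 16 of the 28 calls (9 higher, 7 lower, of 38 tested) and ligands 11 (6 higher, 5 lower, of 31 tested). Counts were low for many members, and 43 of the 99 had a mean under 10.

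**Figure D1:**
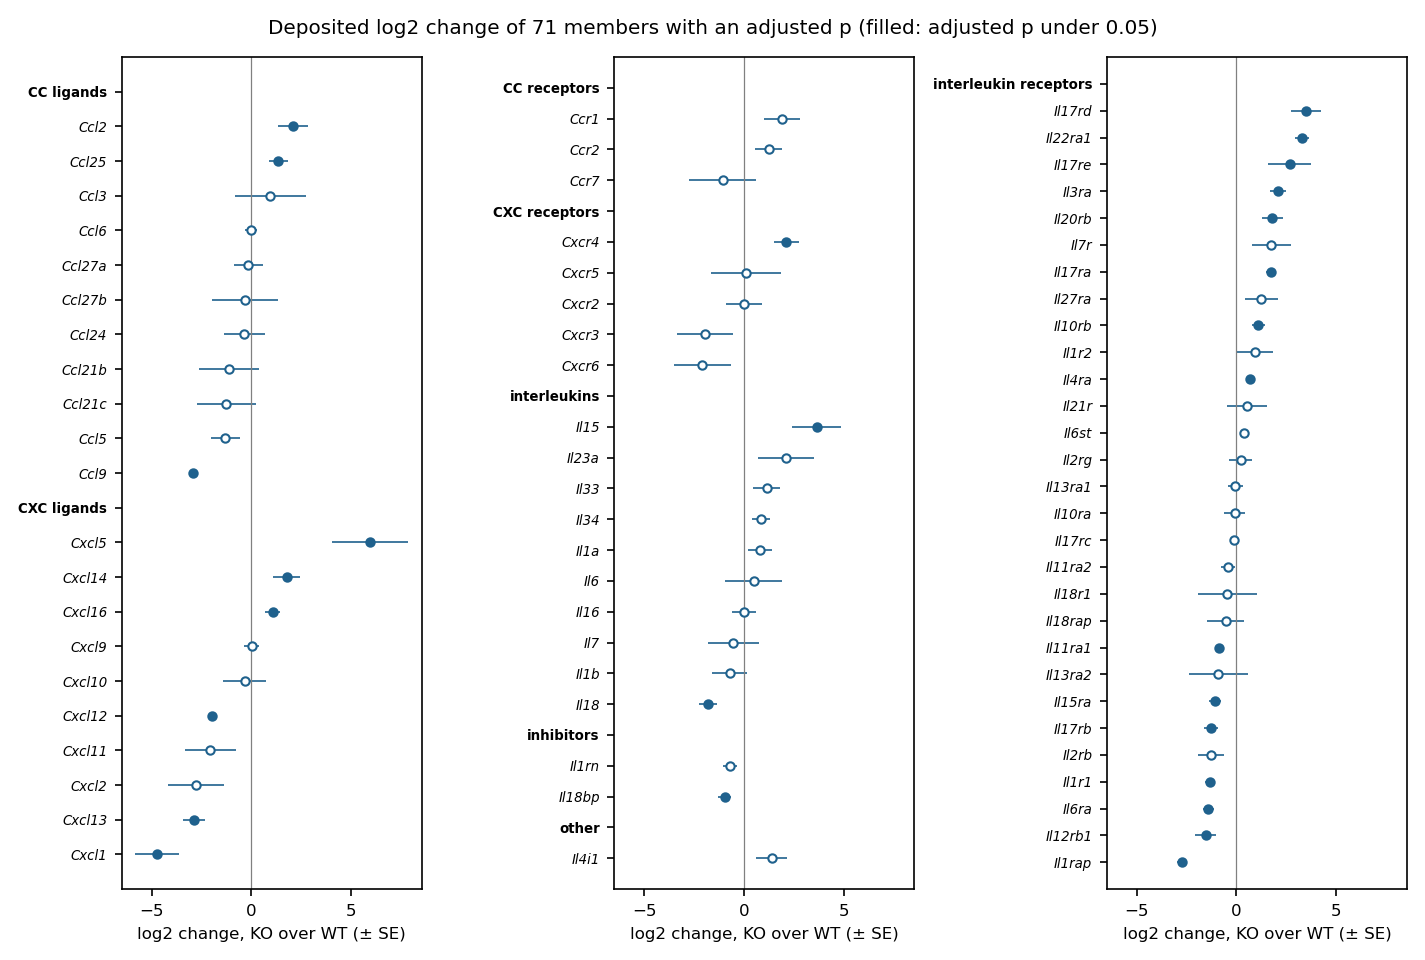
Deposited log2 change, KO over WT, of 71 members with an adjusted p-value, grouped by role, with bars for the SE and filled points for an adjusted p under 0.05. Rises and falls occur within the CC and CXC ligands, the interleukins and the interleukin receptors, while the CC receptors hold none; changes scaled to total reads lie higher, and 5 uncalled members whose mean count reached 50 (Ccl6, Il11ra2, Il13ra1, Il17rc and Il1rn) then have a positive value in place of a negative one.

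The KO input libraries held an estimated 12664113 (A) and 12316858 (B) reads and the WT input libraries 16814204 (A) and 13503905 (B). Their counts were recovered for all 99 members from the digits of the deposited means, and the letters are names only, since the replicate numbers of the libraries could not be told. Mettl14 had 64.6 and 62.0 normalized counts in KO libraries and 79.8 and 99.7 in WT libraries, and its log2 change of -0.50 ± 0.41 (SE) was not called in the authors' deposited table (adjusted p = 0.342). Which exons are deleted is not stated here. The deposited fold change does not name its numerator. KO over WT is the reading used, since 347 genes with a mean of at least 100 had a log2 change above 2, and 156 of them were in the KO peak list alone but 0 in the WT list alone. Of 403 such genes with a log2 change below -2, 30 had only KO peaks and 46 only WT peaks. All 8 hepatocyte markers were measured in this tissue, with 1 higher and 7 lower in KO (Alb, serum albumin, log2 -1.58, adjusted p = 4.58e-11 in the authors' deposited table). Bile duct cell markers were higher in KO (6 of 7 called, summed level 3281 to 4280 normalized counts in KO and 647 to 792 in WT), as were those of stellate cells (5 of 7 called, 4513 to 6942 in KO and 1115 to 1474 in WT). Of the stellate sum, Col3a1 alone had 3145 and 1763 in KO libraries and 158 and 143 in WT libraries. The stellate markers Lrat (log2 0.40) and Des (log2 0.45) were not called in the authors' deposited table. In whole-liver RNA, a change in the number of cells of a type and a change in RNA per cell cannot be told apart.

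How libraries are put on 1 scale moved the whole comparison. Total reads were estimates, with genes lacking recovered counts entered at the deposited mean of their genotype. Of these genes, 181 had a mean above 10000. Recovered reads were 8108710 (A) and 8044688 (B) in KO and 8344726 (A) and 6722911 (B) in WT. A large part of each total thus rests on the entered values. The authors' size factors gave a median log2 change of 0.066 over all genes in a limma fit to the recovered counts, and scaling to total reads gave 0.87. With the second scaling 30 members were higher and 6 lower in limma, where 66.2% of all genes were called, 58.7% higher and 7.56% lower, against 19 and 15 with the authors' size factors, where 49.3% were called, 25.3% higher and 24% lower. Of the 28 deposited calls, 21 passed with both scalings, and 0 reversed. The 7 that did not pass with total reads were all falls: Il11ra1, Il12rb1, Il15ra, Il17rb, Il18bp, Il1r1 and Il6ra. Some members without a deposited call were called higher in limma with total reads. Among these were Ccl6, Ccr1, Ccr2, Il17rc, Il1a, Il1r2, Il23a, Il27ra, Il2rg, Il33, Il34, Il4i1, Il6st and Il7r.

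Among the CC chemokine ligands, 2 of 11 tested were higher in KO and 1 was lower. Ccl9, a chemokine of myeloid cells in mouse, had 369 and 378 normalized counts in the KO libraries A and B, against 2938 and 2778 in the WT libraries A and B. Both KO libraries lay far below both WT libraries, and the level fell by 2.94 ± 0.19 on the log2 scale (SE, 7.65-fold lower, adjusted p = 5.74e-52) in the authors' deposited table. It also passed with total-read scaling (log2 -2.11). Of 11 markers of Kupffer cells and macrophages, Clec4f (log2 -1.39, adjusted p = 4.7e-05) and Vsig4 (log2 -1.03, adjusted p = 0.0245) were lower and Cd68 higher (log2 3.65, adjusted p = 2.31e-54) in the authors' deposited table. The summed level of the 11 markers was 7901 and 6866 normalized counts in KO and 7170 and 6542 in WT. Cd68 alone held 2023 and 2665 of these counts in KO libraries and 168 and 207 in WT libraries. All other markers on the list had a negative log2 change, most of them without a call. The part of these markers in the fall of Ccl9 was not tested.

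Ccl2, which draws CCR2-bearing monocytes, had 46.2 and 51.0 normalized counts in KO libraries and 3.23 and 20.2 in WT libraries. The groups did not overlap, but the WT libraries were far apart, and the rise of 2.09 ± 0.75 log2 units (SE) was called in the authors' deposited table (adjusted p = 0.0150). In limma the log2 change of Ccl2 was 1.23 without WT library A and 3.55 without WT library B. Ccl25, the ligand of CCR9, had 79.7 and 80.7 normalized counts in KO libraries and 28.0 and 35.0 in WT libraries. It was higher in both KO libraries, by 1.35 ± 0.48 log2 units (SE, 2.55-fold, adjusted p = 0.0142) in the authors' deposited table, and by 2.13 with total-read scaling.

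The other 8 tested CC ligands were not called in the authors' deposited table. Ccl6, a mouse CC chemokine of myeloid cells, had 261 and 182 normalized counts in KO libraries and 229 and 218 in WT libraries. Its groups overlapped, and its log2 change of -0.01 in the authors' deposited table (95% interval -0.59 to 0.56, adjusted p = 0.976) was 0.78 and called with total-read scaling. Ccl5, which attracts T cells and NK cells, had 11.95 and 13.6 in KO libraries and 34.5 and 28.3 in WT libraries (log2 -1.30, adjusted p = 0.136 in the authors' deposited table). Limma called Ccl5 lower (adjusted p = 0.0406), but not with total-read scaling (log2 -0.45). Summed T cell markers were 51.0 to 61.4 normalized counts in KO and 66.0 to 101 in WT, and those of NK cells 26.3 to 28.7 in KO and 36.4 to 50.7 in WT, with 0 genes of either list called; their part in these values was not tested. Ccl3, Ccl21b, Ccl21c, Ccl24, Ccl27a and Ccl27b had at most 24.8 normalized counts in any library, and the near-identical copies Ccl21a, Ccl21b and Ccl21c, and Ccl27a and Ccl27b, are uncertain because reads may be split among them. The remaining 9 (Ccl4, Ccl7, Ccl12, Ccl17, Ccl19, Ccl20, Ccl21a, Ccl22 and Ccl28) had no adjusted p-value and at most 6.80 normalized counts in any library.

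The CXC ligands held 6 calls among 10 tested members, 3 in each direction. Cxcl1, Cxcl2, Cxcl3 and Cxcl5 are neighbouring genes on chromosome 5 whose products attract neutrophils through CXCR2. Cxcl1 had 18.3 and 27.2 normalized counts in KO libraries and 196 and 1002 in WT libraries. Both KO libraries lay far below both WT libraries, which were themselves far apart, and the fall of 4.72 ± 1.09 log2 units (SE, adjusted p = 7.89e-05 in the authors' deposited table) had a wide error. In limma the log2 change of Cxcl1 was -5.43 without WT library A and -3.08 without WT library B. Cxcl2 had 3.98 and 0 normalized counts in KO libraries and 7.55 and 20.2 in WT libraries, without a call (log2 -2.77, adjusted p = 0.0972 in the authors' deposited table). Cxcl3 had at most 4.04 in any library.

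The RefSeq promoters of Cxcl1, Cxcl2 and Cxcl3 are shown because Cxcl1 had the largest fall among the called members and all 3 hold one NF-kB-type motif. Their neighbour Cxcl5, which was higher in KO, is not among the genes listed below with a match. Whether a promoter was found and searched for Cxcl5 is not recorded, so the motif cannot be called absent there. The 3 promoters are printed from 250 bases upstream up to the gene start, build GRCm38.p6, plus strand, 5′ to 3′. The match to the pattern (GGGA, any base, TT, any base, CC) is in capitals.
Cxcl1 (chr5:90890995-90891244): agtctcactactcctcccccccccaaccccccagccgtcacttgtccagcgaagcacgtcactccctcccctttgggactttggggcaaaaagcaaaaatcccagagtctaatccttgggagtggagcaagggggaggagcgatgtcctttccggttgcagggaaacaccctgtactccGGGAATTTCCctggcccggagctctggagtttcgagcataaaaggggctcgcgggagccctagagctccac
Cxcl2 (chr5:90903649-90903898): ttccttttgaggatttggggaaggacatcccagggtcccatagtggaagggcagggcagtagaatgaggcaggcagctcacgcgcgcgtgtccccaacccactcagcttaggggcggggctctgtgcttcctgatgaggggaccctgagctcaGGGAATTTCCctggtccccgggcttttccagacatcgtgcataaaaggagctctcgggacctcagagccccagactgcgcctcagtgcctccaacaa
Cxcl3 (chr5:90785851-90786100): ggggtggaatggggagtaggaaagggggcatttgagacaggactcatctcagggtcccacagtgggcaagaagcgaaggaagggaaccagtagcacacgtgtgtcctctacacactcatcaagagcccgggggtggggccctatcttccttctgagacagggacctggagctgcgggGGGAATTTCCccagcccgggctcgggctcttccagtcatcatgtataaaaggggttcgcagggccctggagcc
In each of them the match reads GGGAATTTCC and starts 71 (Cxcl1), 97 (Cxcl2) and 73 (Cxcl3) bases before the gene start. The motif was searched on both strands of 32851 RefSeq promoters, each with 250 bases before and 50 after the start, and 1.2% held it. Promoters were found for 73 of the 99 members, 91 in all, and 9 of them held it (9.89%), those of Ccr6, Cxcl1, Cxcl10, Cxcl2, Cxcl3, Il12rb2, Il16, Il21r and Il6. Of these genes, Ccr6, Cxcl3 and Il12rb2 had no adjusted p-value, and Cxcl1 was the only tested one called. The uncalled tested ones had low mean counts, from 5.29 (Il6) to 33.7 (Il16). Of all tested genes, 42.5% were called. A match to TTCNNNGAA, the pattern bound by STAT factors, was held by 11% of member promoters and 8.3% of all. A match to TGATGNAA, the pattern of ATF4 with C/EBP factors, was held by 6.59% and 3.97%. A match describes letters in a window and not binding, and no binding was measured.

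Cxcl5 went the other way from Cxcl1. It had 24 and 10 reads in KO libraries and 0 and 0 reads in WT libraries, which is 19.1 and 8.50 normalized counts in KO and 0 in WT. Against a floor of 3 reads over both WT libraries, which covers counting error only, its level was at least 7.78-fold higher in KO (adjusted p = 0.0056 in the authors' deposited table). Cxcr2, the receptor of this group, had 18.3 and 10.2 normalized counts in KO libraries and 8.63 and 20.2 in WT libraries, so that its groups overlapped (log2 0.00, 95% interval -1.79 to 1.79 from the authors' deposited table). Summed neutrophil markers were 250 and 176 normalized counts in KO and 147 and 339 in WT, with 1 of 6 tested genes called (Retnlg, lower), and their part in the CXC ligand values was not tested.

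Cxcl12, the homeostatic chemokine of stromal and endothelial cells, and its receptor gene Cxcr4 moved in opposite directions. Cxcl12 had 1079 and 891 normalized counts in KO libraries and 3641 and 4021 in WT libraries. Every KO library lay far below every WT library, and the fall of 1.96 ± 0.19 log2 units (SE, 3.89-fold lower) was called in the authors' deposited table (adjusted p = 9.27e-23). The log2 change of Cxcl12 was -1.14 when scaled by total reads, also called. Cxcr4 had 54.2 and 55.2 normalized counts in KO libraries and 11.9 and 13.5 in WT libraries. The libraries of each genotype were close together, and the rise was 2.12 ± 0.63 log2 units (SE, 4.33-fold, adjusted p = 0.00275) in the authors' deposited table. Summed endothelial markers were 3190 and 3074 normalized counts in KO and 3042 and 2412 in WT, with 1 of 8 called, lower. Of the stellate markers, 5 of 7 were called higher in KO, without Lrat and Des, as given above. The part of these markers in the Cxcl12 fall was not tested.

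Cxcl13, the B cell attractant, had 9.56 and 12.7 normalized counts in KO libraries and 62.5 and 101 in WT libraries. The groups stood clearly apart (log2 -2.87 ± 0.57 (SE), adjusted p = 3.73e-06 in the authors' deposited table). Summed markers of B and plasma cells were 127 and 95.2 in KO and 202 and 106 in WT, with 0 of 6 tested genes called and a median log2 change of -0.76, and their part was not tested. Cxcl14, a chemokine of epithelial tissues, had 66.1 and 34.0 in KO libraries and 10.8 and 18.9 in WT libraries (log2 1.77 ± 0.67 (SE), adjusted p = 0.0218 in the authors' deposited table). Cxcl16, a membrane-bound chemokine that binds CXCR6, had 265 and 149 in KO libraries and 113 and 82.1 in WT libraries (log2 1.08 ± 0.37 (SE), adjusted p = 0.0106 in the authors' deposited table; 1.85 with total-read scaling). For both genes KO library A stood above KO library B without any overlap with WT. The limma log2 change of Cxcl14 was 1.19 and that of Cxcl16 0.62 without KO library A, and Cxcl16 missed the threshold without WT library B (limma adjusted p = 0.0522).

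Of the interferon-induced CXCR3 ligands none was called. Cxcl9 had 176 and 90.1 normalized counts in KO libraries and 137 and 127 in WT libraries (log2 0.02, 95% interval -0.73 to 0.76, adjusted p = 0.980 in the authors' deposited table). Its KO libraries lay on either side of the WT libraries, and limma gave a log2 change of -0.063. Cxcl10 had 9.56 and 8.50 in KO libraries and 4.31 and 18.9 in WT libraries, and Cxcl11 had 1.59 and 4.25 in KO libraries and 17.3 and 6.73 in WT libraries. Neither was called, and the groups of Cxcl10 overlapped (adjusted p = 0.837 for Cxcl10 and 0.196 for Cxcl11 in the authors' deposited table). Cxcl17 and Cxcl3 had no adjusted p-value.

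**Figure D2:**
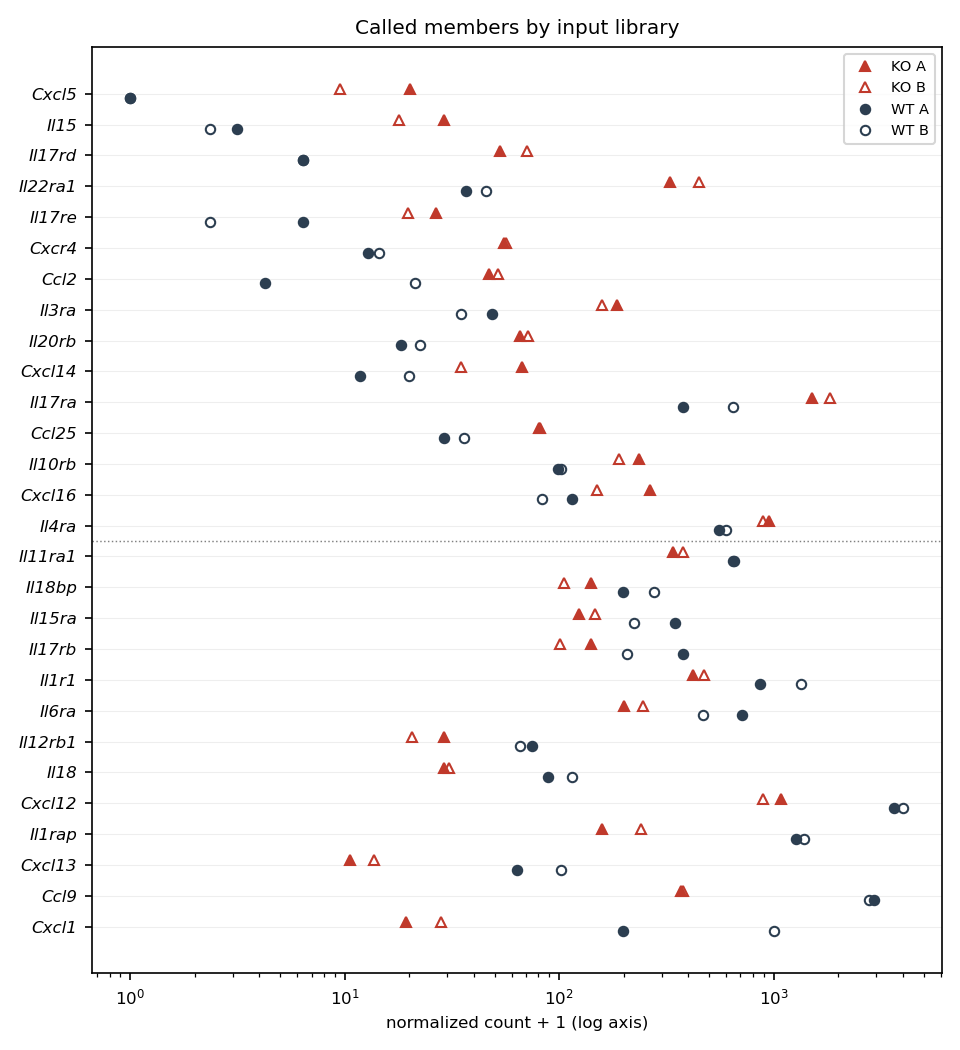
Normalized read counts plus 1 (log axis) of the 28 called members in KO (red triangles) and WT (dark circles) input libraries, with filled symbols for library A and open symbols for library B. The genotypes do not overlap in any of the 28 members, which were selected by a small adjusted p on these same libraries. Among all genes with an adjusted p and recovered counts, 76.8% do not overlap. The WT libraries of Cxcl1 (196 and 1002) and Ccl2 (3.23 and 20.2) are far apart, and 7 of the falls did not pass in limma when libraries were scaled to total reads.

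Apart from Cxcr4, no chemokine receptor gene among the 9 tested was called in the authors' deposited table, and limma also called Ccr1. Ccr1, a receptor of monocytes and neutrophils, had 21.5 and 28.9 normalized counts in KO libraries and 5.39 and 8.08 in WT libraries (log2 1.92, adjusted p = 0.0694 in the authors' deposited table; limma adjusted p = 0.0209). The CCL2 receptor gene Ccr2 had 44.6 and 29.7 in KO libraries and 12.9 and 18.9 in WT libraries (log2 1.24, adjusted p = 0.137 in the authors' deposited table). For Ccr1 and Ccr2 the KO libraries were above the WT libraries, and with total-read scaling limma called both (log2 2.51 for Ccr1 and 1.95 for Ccr2). Summed monocyte markers were 233 and 240 in KO and 152 and 203 in WT with 0 of 6 called, and their part was not tested. Among receptors of lymphocytes, Cxcr3 had 0 and 5.95 in KO libraries and 11.9 and 10.8 in WT libraries, Cxcr6 had 3.98 and 0.850 in KO libraries and 15.1 and 5.39 in WT libraries, and neither was called. Cxcr5 and Ccr7 had at most 6.47 normalized counts in any library, and Ccr4, Ccr6, Ccr9, Ccr10 and Cxcr1 had no adjusted p-value.

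Among the interleukins, 1 of 10 tested rose and 1 fell. Il15, a growth factor of NK cells and memory T cells, had 27.9 and 17.0 normalized counts in KO libraries and 2.16 and 1.35 in WT libraries. It was high in both KO libraries (log2 3.66 ± 1.23 (SE), adjusted p = 0.00888 in the authors' deposited table), with a 95% interval of 1.25 to 6.06 log2 units over few reads, 35 and 20 in KO libraries and 2 and 1 in WT libraries. Its binding chain Il15ra, which presents IL-15 to neighbouring cells, had 123 and 146 in KO libraries and 347 and 222 in WT libraries. The groups of Il15ra did not overlap (log2 -1.09 ± 0.31 (SE), adjusted p = 0.00204 in the authors' deposited table), but the fall was -0.23 with total-read scaling and not called.

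Il18, an IL-1 family cytokine that induces interferon gamma, had 27.9 and 29.7 normalized counts in KO libraries and 87.3 and 113 in WT libraries. It fell by 1.80 ± 0.46 log2 units (SE, 3.47-fold lower, adjusted p = 0.000356) in the authors' deposited table, and by 0.95 with total-read scaling. Il18bp, the secreted protein that captures IL-18, had 139 and 105 in KO libraries and 197 and 276 in WT libraries. Its groups did not overlap either (log2 -0.95 ± 0.32 (SE), adjusted p = 0.00946 in the authors' deposited table), and with total-read scaling the value was -0.13 without a call. The IL-18 receptor chains were low: Il18r1 had at most 8.63 normalized counts in any library, and Il18rap had 14.3 and 7.65 in KO libraries and 11.9 and 20.2 in WT libraries without a call.

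The IL-1 agonists and Il6 were not called. Il1b, the cytokine released by inflammasomes, had 22.3 and 15.3 normalized counts in KO libraries and 5.39 and 56.6 in WT libraries, so that both KO libraries lay between the WT libraries (log2 -0.70, 95% interval -2.42 to 1.01 from the authors' deposited table; 0.023 in limma and 0.79 with total-read scaling). The antisense transcript Il1bos had 0 reads in KO and 5 in WT in all, and no source says how the counting used strand, so reads of Il1b and Il1bos may be shared. Il1a, an alarmin of damaged cells, had 40.6 and 43.3 in KO libraries and 20.5 and 28.3 in WT libraries (adjusted p = 0.297 in the authors' deposited table). Il6, which drives the acute phase response, had 7.17 and 5.10 in KO libraries and 2.16 and 6.73 in WT libraries, and its 95% interval of -2.33 to 3.30 log2 units from the authors' deposited table covers changes in both directions at this depth.

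Il34, a ligand of the CSF1 receptor, had 94.8 and 73.1 normalized counts in KO libraries and 51.8 and 40.4 in WT libraries. The groups did not overlap, and the change missed the threshold in the authors' deposited table (log2 0.86, adjusted p = 0.114) and passed it in limma (adjusted p = 0.0479). Il33, an alarmin of stromal and endothelial cells, had 40.6 and 32.3 in KO libraries and 19.4 and 13.5 in WT libraries (log2 1.14, adjusted p = 0.168 in the authors' deposited table). Il1rn, which encodes the IL-1 receptor antagonist, had 90.8 and 85.0 in KO libraries and 156 and 131 in WT libraries (log2 -0.71, adjusted p = 0.0889 in the authors' deposited table). Limma called it lower (adjusted p = 0.0334), while total-read scaling gave a positive value of 0.12. Il16, Il23a and Il7 had at most 43.1 normalized counts in any library and were not called in the authors' deposited table. Il12b, Il17d, Il1f6, Il1f9 and Il27 had no adjusted p-value.

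Of the 29 tested interleukin receptor genes, 8 were higher and 7 lower, which is 51.7% called beside 42.5% of all tested genes and 60% of the 10 tested CXC ligands. The chains of 1 family did not all change in the same direction. In the IL-17 receptor family 3 chains rose and 1 fell. Il17ra, the chain shared by receptors for IL-17 cytokines, had 1507 and 1834 normalized counts in KO libraries and 376 and 645 in WT libraries. All KO libraries lay above all WT libraries (log2 1.71 ± 0.26 (SE), 3.28-fold, adjusted p = 2.88e-10 in the authors' deposited table; 2.57 with total-read scaling). Il17rc, which pairs with it to bind IL-17A and IL-17F, had 473 and 459 in KO libraries and 536 and 475 in WT libraries. Its log2 change was -0.12 in the authors' deposited table (95% interval -0.56 to 0.32, adjusted p = 0.715), but 0.70 and called with total-read scaling.

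Il17rd, known as a brake on FGF signalling, had 51.8 and 69.7 normalized counts in KO libraries and 5.39 and 5.39 in WT libraries. This was a rise of 3.49 ± 0.74 log2 units (SE, 11.3-fold, adjusted p = 1.4e-05) in the authors' deposited table. Il17re, which binds IL-17C, had 25.5 and 18.7 in KO libraries and 5.39 and 1.35 in WT libraries (log2 2.67 ± 1.07 (SE), adjusted p = 0.0328 in the authors' deposited table). Il17rb, the IL-25 receptor chain, had 139 and 100 in KO libraries and 375 and 206 in WT libraries (log2 -1.28 ± 0.35 (SE), adjusted p = 0.000844 in the authors' deposited table). WT library A was the highest of the 4 for Il17rb; its limma log2 change was -0.80 without that library, and with total-read scaling -0.41 and not called.

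Both chains of the signalling IL-1 receptor were lower in KO. Il1rap, the accessory chain without which IL-1 and IL-33 do not signal, had 157 and 239 normalized counts in KO libraries and 1272 and 1388 in WT libraries. It fell by 2.75 ± 0.24 log2 units (SE, 6.73-fold lower, adjusted p = 4.39e-28) in the authors' deposited table, and by 1.95 with total-read scaling. Il1r1, the signalling receptor of IL-1, had 419 and 471 in KO libraries and 864 and 1343 in WT libraries. Its groups did not overlap (log2 -1.31 ± 0.25 (SE), adjusted p = 9.04e-07 in the authors' deposited table), and the value with total-read scaling was -0.46, not called. The decoy receptor gene Il1r2 had 15.1 and 22.1 in KO libraries and 14.02 and 5.39 in WT libraries (log2 0.92, adjusted p = 0.450 in the authors' deposited table). Il1rl1, the IL-33 receptor, and Il1rl2 had no adjusted p-value.

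Of the gp130 family, Il6ra and Il11ra1 were lower in KO. Il6ra, the IL-6 binding chain, had 199 and 246 normalized counts in KO libraries and 711 and 465 in WT libraries (log2 -1.40 ± 0.27 (SE), adjusted p = 2.02e-06 in the authors' deposited table). Il6st, which encodes gp130, had 2643 and 2384 in KO libraries and 1862 and 1957 in WT libraries. Both KO libraries of Il6st were above both WT libraries, but the change missed the threshold in the authors' deposited table (log2 0.40 ± 0.18 (SE), adjusted p = 0.0678) and passed it in limma (adjusted p = 0.0480). With total-read scaling Il6st was called at a log2 change of 1.22. With total-read scaling the fall of Il6ra was -0.55 without a call. Il11ra1, the IL-11 binding chain, had 337 and 377 in KO libraries and 648 and 652 in WT libraries (log2 -0.86 ± 0.22 (SE), adjusted p = 0.000459 in the authors' deposited table), and its value was -0.045 with total-read scaling. Il11ra2, a near-identical copy, had 107 and 192 in KO libraries and 198 and 201 in WT libraries (log2 -0.42, adjusted p = 0.340 in the authors' deposited table; 0.34 with total-read scaling), and both are uncertain since reads may be shared between them. Il27ra had 34.3 and 18.7 in KO libraries and 14.02 and 8.08 in WT libraries, without a call in the authors' deposited table.

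The chains of the IL-22 receptor both rose. Il22ra1, which confines IL-22 responses to epithelial cells including hepatocytes, had 327 and 446 normalized counts in KO libraries and 35.6 and 44.4 in WT libraries. The libraries of the genotypes stood far apart, with a rise of 3.28 ± 0.34 log2 units (SE, 9.71-fold, adjusted p = 1.13e-20) in the authors' deposited table. Il10rb, the second chain of the IL-10 and IL-22 receptors, had 235 and 189 in KO libraries and 98.1 and 101 in WT libraries (log2 1.09 ± 0.32 (SE), adjusted p = 0.00239 in the authors' deposited table; 1.89 with total-read scaling). Il20rb, a chain of the receptors for IL-19, IL-20 and IL-24, had 64.6 and 70.5 in KO libraries and 17.3 and 21.5 in WT libraries (log2 1.81 ± 0.55 (SE), adjusted p = 0.00359 in the authors' deposited table). Il10ra, the IL-10 binding chain of leukocytes, had 45.4 and 42.5 in KO libraries and 55.0 and 37.7 in WT libraries, with overlapping groups (log2 -0.08, 95% interval -1.10 to 0.94 from the authors' deposited table). The bile duct markers, which are epithelial and higher in KO as given above, moved with Il22ra1, Il20rb and Il17re, and their part in these rises was not tested.

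**Figure D3:**
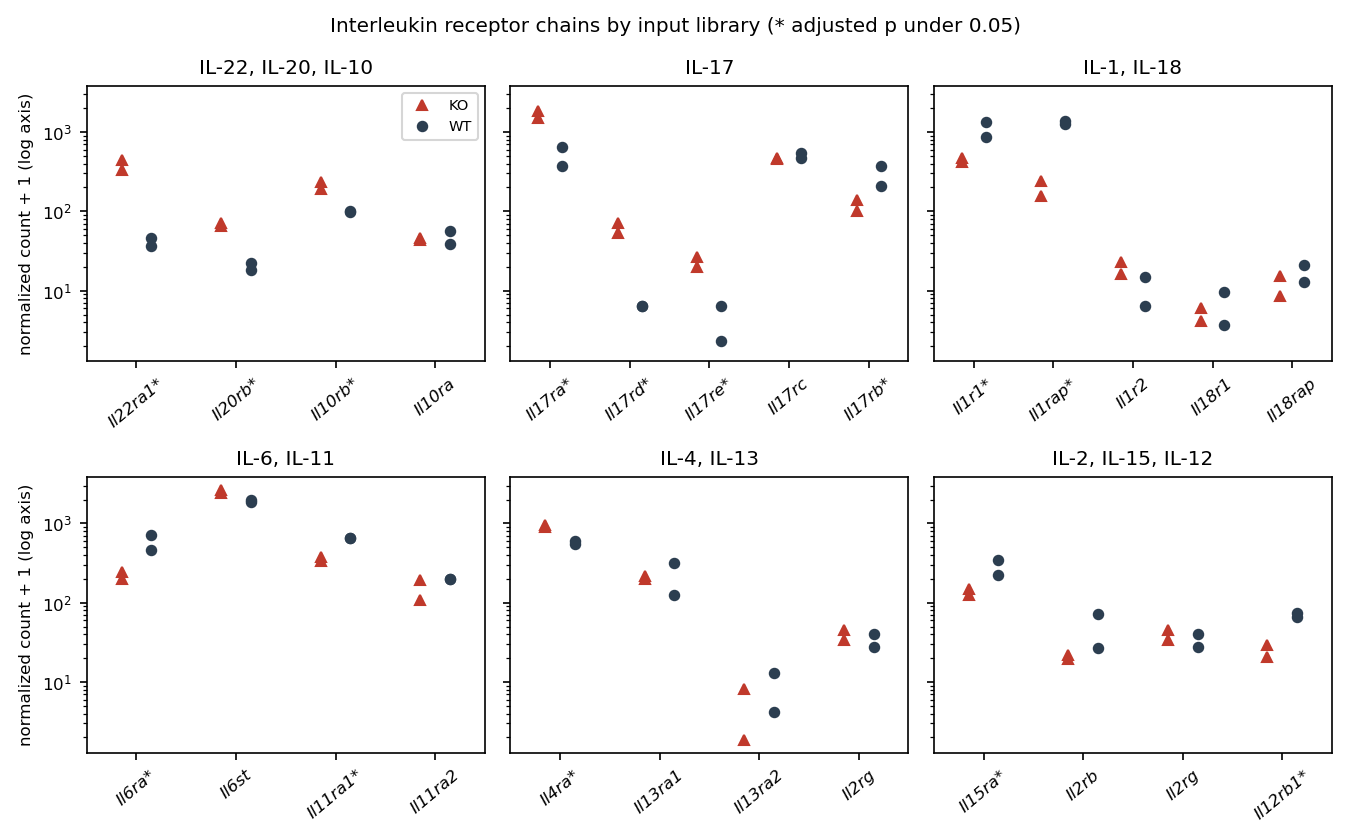
Normalized read counts plus 1 (log axis) of interleukin receptor chains in KO (red triangles) and WT (dark circles) input libraries, grouped by receptor family, with * for an adjusted p under 0.05 in the deposited table. Il17ra and Il22ra1 lie higher in KO, and Il1rap, Il1r1 and Il6ra lower, while Il17rc and Il13ra1 carry no mark; the falls of Il1r1 and Il6ra did not pass, and the signs of Il17rc, Il13ra1 and Il11ra2 turned positive, when libraries were scaled to total reads.

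Il4ra, the chain shared by the IL-4 and IL-13 receptors, had 950 and 887 normalized counts in KO libraries and 554 and 598 in WT libraries. It rose by 0.67 ± 0.21 log2 units (SE, adjusted p = 0.00382) in the authors' deposited table, and by 1.49 with total-read scaling. Its IL-13 partner Il13ra1 had 218 and 199 in KO libraries and 124 and 314 in WT libraries, with both KO libraries between the WT libraries (log2 -0.07, 95% interval -0.80 to 0.67, adjusted p = 0.908 in the authors' deposited table). The sign of Il13ra1 rested on single WT libraries: in limma its log2 change was -0.59 without WT library A and 0.74 without WT library B, and 0.89 with total-read scaling. Il3ra, the IL-3 binding chain, had 186 and 158 in KO libraries and 47.4 and 33.7 in WT libraries (log2 2.07 ± 0.39 (SE), adjusted p = 8.25e-07 in the authors' deposited table). Il12rb1, which serves the IL-12 and IL-23 receptors of T cells and NK cells, had 27.9 and 19.5 in KO libraries and 73.3 and 64.6 in WT libraries (log2 -1.54 ± 0.52 (SE), adjusted p = 0.0097 in the authors' deposited table; -0.72 and not called with total-read scaling). The lymphocyte chains Il2rb, Il2rg, Il7r and Il21r were not called in the authors' deposited table, but limma called Il2rg and Il7r higher with total-read scaling. Of these, Il2rb had 20.7 and 18.7 in KO libraries and 70.1 and 25.6 in WT libraries, and Il7r had 26.3 and 13.6 in KO libraries and 6.47 and 5.39 in WT libraries. Il13ra2 had at most 12.1 normalized counts in any library, and Il2ra, Il9r and Il12rb2 had no adjusted p-value. The remaining member, Il4i1, which encodes an amino acid oxidase of myeloid and B cells, had 36.7 and 22.9 in KO libraries and 10.8 and 12.1 in WT libraries (log2 1.38, adjusted p = 0.139 in the authors' deposited table; limma adjusted p = 0.0495; log2 2.04 with total-read scaling).

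In limma, all 28 deposited calls passed with the 4 libraries. Limma used the same libraries as the deposited comparison, and counts of 23 members were recovered with help of the deposited fold change. This is therefore no separate evidence for the calls. Over all genes limma called 49.3%, beside 42.5% in the authors' deposited table. After KO library A or KO library B was left out, 0 of all 14073 genes were called, so the loss of the members' calls there says nothing about single members. The values themselves moved little for Ccl9 (log2 -2.91 without KO library A and -2.95 without KO library B) and Il22ra1 (3.46 and 3.01). The median log2 change of the fitted members was -0.12 without KO library A and 0.20 without KO library B. Over all genes it was 0.058 and 0.075. Without WT library A the members' median was -0.0048, and without WT library B it was -0.048. Over all genes it was 0.062 and 0.048. Among the 72 tested members, the libraries of the genotypes did not overlap in 49, against 76.8% of all genes with recovered counts. With 2 libraries per genotype an exact permutation test could not reach 0.05, so none was made.

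Genes that act beside these families were described from 6 lists. Of all tested genes, 20.4% were called higher and 22.2% lower in the authors' deposited table, which is the background for the counts of these lists. Of 15 tested other chemokine genes, 3 were higher and 1 was lower in KO (median log2 0.14). Cx3cl1, fractalkine, rose by 2.11 ± 0.61 log2 units and its receptor gene Cx3cr1 by 2.51 ± 0.80 (SE, adjusted p = 0.00189 and 0.00573 in the authors' deposited table). The atypical receptor gene Ccrl2 rose by 1.83 ± 0.47 (SE, adjusted p = 0.000447), and Rarres2, which encodes chemerin, fell by 1.65 ± 0.20 (SE, adjusted p = 1.22e-15), in the authors' deposited table. Of 17 tested cytokine and receptor genes of the same families without an interleukin name, 6 were higher and 0 lower (median log2 0.36). Lif, a gp130 cytokine, had 44.6 and 43.3 normalized counts in KO libraries and 2.16 and 1.35 in WT libraries (log2 4.62 ± 1.07 (SE), adjusted p = 7.61e-05 in the authors' deposited table). Clcf1, another gp130 cytokine, rose by 2.70 ± 0.48, and the macrophage growth factor gene Csf1 by 1.39 ± 0.31 log2 units (SE, adjusted p = 1.98e-07 and 4.18e-05 in the authors' deposited table). Csf2ra, the GM-CSF binding chain, rose by 1.94 ± 0.32 log2 units (SE, adjusted p = 1.53e-08 in the authors' deposited table).

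Downstream of the receptors, 4 adaptor, kinase and STAT genes were higher and 5 were lower of 26 tested (median log2 -0.00084). Myd88, the adaptor of IL-1 and IL-18 receptors, fell by 1.01 ± 0.23, and Stat3, the transcription factor of gp130 receptors, fell by 1.31 ± 0.20 log2 units (SE, adjusted p = 6.54e-05 and 6.76e-10 in the authors' deposited table). Of the feedback inhibitor genes, Socs3 fell by 1.61 ± 0.31 and Socs2 rose by 2.56 ± 0.45 log2 units (SE, adjusted p = 1.13e-06 and 1.33e-07 in the authors' deposited table). Of 13 NF-kB subunit and inhibitor genes, 5 were higher and 2 lower (median log2 0.68), with Relb higher by 2.45 ± 0.45, Nfkb2 by 1.21 ± 0.26 and Rela by 0.73 ± 0.21, and the kinase gene Chuk lower at -1.01 ± 0.20 log2 units (SE, adjusted p = 4.54e-07, 1.76e-05, 0.00194 and 5.56e-06 in the authors' deposited table). Of 8 tested inflammasome and processing genes, 0 were called; Nlrp3 had a log2 change of 0.28 and Gsdmd one of -0.37 in the authors' deposited table. With total-read scaling the adaptor list held 18 higher and 2 lower genes of 26, and the NF-kB list 9 higher and 0 lower of 13. Of all genes 58.7% were then called higher and 7.56% lower, so the counts in each direction depended on the scaling. The log2 change was then -0.19 for Myd88, -0.48 for Stat3, -0.73 for Socs3 and -0.19 for Chuk.

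All 19 hepatocyte acute phase targets of IL-6 and IL-1 were lower in KO in the authors' deposited table (median log2 -2.60). Saa1 and Saa2, serum amyloid A, had log2 changes of -9.64 ± 0.22 and -10.0 ± 0.27 (SE), with adjusted p-values listed as 0 in the authors' deposited table. Crp had 398 and 248 normalized counts in KO libraries and 5238 and 5937 in WT libraries, and Orm2 had 359 and 405 in KO libraries and 5236 and 7912 in WT libraries. For both genes every KO library lay far below every WT library. Recovered counts allowed a fit with total-read scaling for 6 of the 19, of which 5 were lower and 0 higher. The log2 change of Lbp was -1.25 in the authors' deposited table and -0.42 with total-read scaling. That scaling raised log2 changes by a median of 0.82 over all fitted genes. The rest of the list could not be fitted, including C3, with the smallest deposited fall (log2 -0.96), so how far their falls hold with total-read scaling was not tested. Hepatocyte markers were also lower, 7 of 8, and their part in these falls was not tested.

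The m6A antibody peaks came as 1 deposited list per genotype, 12290 peaks for KO and 5586 for WT, in mm10 coordinates, with no value per library and so no test. The enrichment of each peak, taken as a ratio of IP over input, and its score, taken as a p-value from its range, are the authors' values. In the KO list 12 members had a peak (31 peaks over 7588 bases), and in the WT list 5 members (15 peaks over 1431 bases). All 5 members with a WT peak (Cxcl12, Il17ra, Il1r1, Il4ra and Il6st) also had KO peaks, and 7 had KO peaks alone (Ccl6, Il10rb, Il11ra1, Il13ra1, Il15ra, Il17rc and Il6ra). Over all genes of the table, 36.3% had a KO peak and 18.5% a WT peak. Of the 23 members whose mean count reached 100, 12 had a KO peak and 5 a WT peak, beside 62.2% (KO) and 32.4% (WT) of all genes with such a mean, so peaks were not more frequent among the members. Ccl9 had the highest mean count, not per length, of the members without a peak. Of the 15 WT peaks, 14 overlapped a KO peak by at least 1 base, and 9 of the 31 KO peaks overlapped a WT peak.

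Single member peaks had a median of 100 covered bases in the KO list and 98 in the WT list, and the longest covered 1734 bases in KO and 297 in WT. The median enrichment of member peaks was 15.8 in the KO list and 46.1 in the WT list, beside 13.1 over all KO peaks and 24.2 over all WT peaks. Peaks lay toward the 3′ end of the gene: 20 of 31 KO peaks and 12 of 15 WT peaks lay within the last 20% of the gene's span. The lists differ in total number of peaks, and neither the peak caller nor any pooling of replicates is stated.

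Il1r1 had the highest enrichment of any member peak in either list. Its KO peak at chr1:40313138-40313784 covered 647 bases at an enrichment of 75.0, and the WT peak within it at chr1:40313437-40313585 covered 149 bases at 210. A second pair was at the same position in both lists, chr1:40315331-40315429, with an enrichment of 19.4 in KO and 32.6 in WT. The first WT peak ended 2616 bases and the shared position 772 bases from the 3′ end of a gene that spans 93722 bases. Il1r1 RNA was lower in KO.

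Il6st had 3 KO peaks over 1980 bases and 5 WT peaks over 393 bases. One KO peak of 1734 bases at chr13:112504037-112505770 (enrichment 22.7) took in 4 separate WT peaks, with enrichments of 5.83 to 46.1. Both lists also held a peak near the gene's start, chr13:112464121-112464218 in KO (enrichment 15.8) and chr13:112464170-112464218 in WT (45.5). Il4ra had a like pattern: a KO peak of 1148 bases at chr7:125575680-125576827 (enrichment 16.9) spanned 3 WT peaks, at 42.3, 56.8 and 49.5.

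Cxcl12 and Il17ra, which changed in opposite directions at the RNA level, both had peaks in both lists. In Cxcl12 the KO peak at chr6:117173541-117173788 (enrichment 37.5) took in the only WT peak, chr6:117173591-117173689 (enrichment 164), and 3 further KO peaks lay closer to the 3′ end with enrichments of 22.6 to 51.2. In Il17ra the KO peak at chr6:120481942-120482486 (enrichment 6.50) held the WT peak at chr6:120482091-120482387 (62.3). No other member with KO peaks had a lower top enrichment than Il17ra.

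The members with a peak in the KO list alone included both called and uncalled genes. Il6ra had 4 KO peaks that lay 350 to 1847 bases from the 3′ end of its minus-strand gene, with the highest enrichment of 16.4 at chr3:89869674-89869722. Il13ra1 had a KO peak of 296 bases at chrX:36168885-36169180 (enrichment 65.7), and Il17rc one of 49 bases close to its start at chr6:113471505-113471553 (67.7). Il10rb had 3 KO peaks with enrichments of 4.29 to 17.5. Ccl6, Il11ra1 and Il15ra had 1 KO peak each, at 12.6, 31.5 and 20.2. Of these 7 genes, Il10rb was higher in KO RNA, Il6ra, Il11ra1 and Il15ra were lower, and Ccl6, Il13ra1 and Il17rc were not called.

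**Figure D4:**
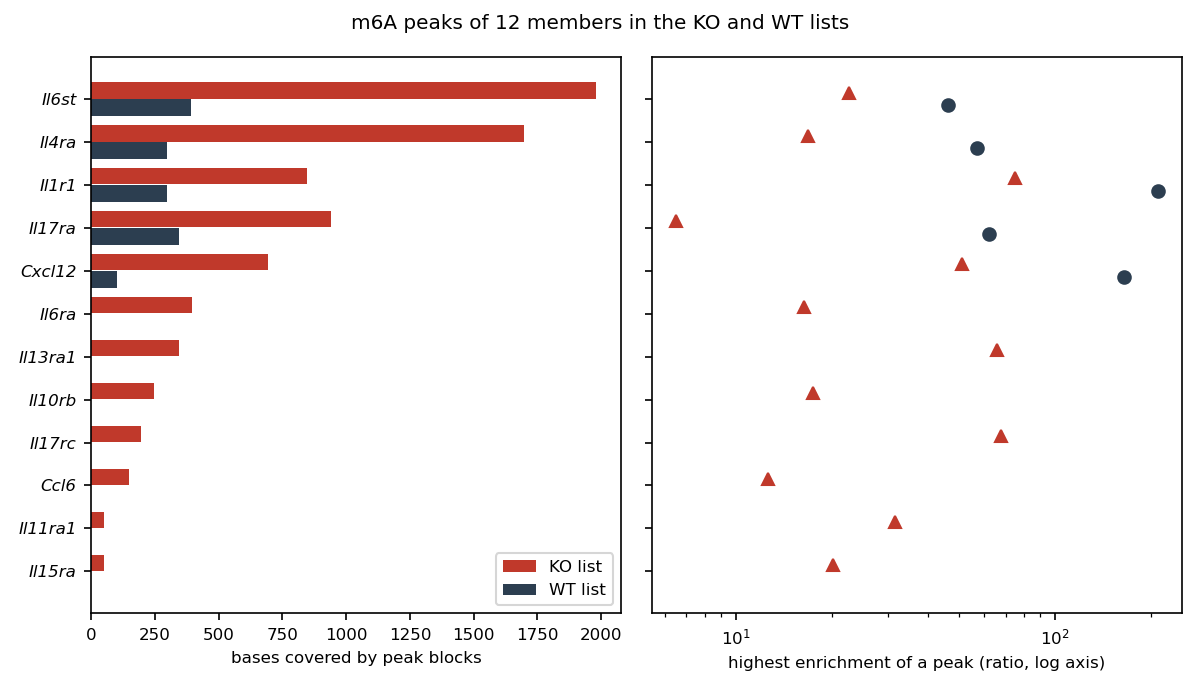
Bases covered by m6A peaks and highest peak enrichment (ratio of IP over input) of the 12 members with a peak, from the KO and WT lists, 1 value per genotype. KO peaks cover more bases in each of the 5 members found in both lists, from 694 against 99 in Cxcl12 to 1980 against 393 in Il6st, and the highest enrichment is larger in the WT list in each of the 5.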

How the data were processed

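Polyadenylated liver RNA was sequenced as input and after m6A precipitation, in 2 libraries for each genotype. Alignment with HISAT2 2.1.0 to mm10 and DESeq2 1.18.1 are listed in the submitters' processing notes; the counter of reads, the annotation and the peak caller are not stated. The mean of a gene in the authors' deposited table is a signal, namely counts divided by size factors and averaged over 4 input libraries. The deposited fold change and its standard error are log2 values, the test value is a score (DESeq2's Wald statistic), and the p-value and its Benjamini-Hochberg adjustment, given for 14257 genes, are the authors'. The deposited peak lists give an enrichment and a score per peak. The score was taken as a p-value from its range, and no statement tells whether it was adjusted. All these values were used as deposited.

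The digits of the means hold the reads of each library, because every mean adds up 4 whole numbers, each times the step of its library. The steps gave size factors of 1.25 and 1.18 for the KO libraries A and B, and 0.927 and 0.743 for the WT libraries A and B. Counts were found for 15949 of 16133 genes, and 181 with a mean above 10000 were not searched. Of the 99 members, 76 were recovered from the mean alone and 23 with help of the deposited fold change. For the 1333 genes with a mean of 50 to 100 recovered from the mean alone, refitted log2 changes differed from the deposited ones by at most 0.00486. Members with very few reads differed by up to 0.0789 (Ccl22). The recovery and the fit were also tested on simulated data. Precision is limited by 2 libraries per genotype and, for many members, by few reads.

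All recovered genes with a deposited adjusted p-value entered 1 limma fit (version 3.58.1, with a trend) on log2(normalized count + 1), so its changes are on that scale and understate those of low genes; no count model was run. Limma p-values were adjusted by the Benjamini-Hochberg method over all genes fitted. Intervals are the deposited log2 change ± 1.96 times its deposited SE. The alternatives were other scalings, pseudocounts of 0.5 and 5, other filters, no trend, other thresholds and leaving out each library. Promoters are RefSeq's for GRCm38.p6, searched for 3 motifs. Named genes are all called members, uncalled members with a mean of at least 50, members with a peak, other members as their role is accounted for, Mettl14, up to 4 called genes per pathway list or the 2 with the highest mean where none passed, and marker genes. The members and lists were chosen with earlier results of these data known, so no list was given a test. The sequence under the peaks was not analysed here, and 1 member is counted but its values are not reported here.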

Additional observations from a re-analysis of the deposited data

How the results depend on the processing

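At a deposited adjusted p under 0.01, 10 members were higher and 13 lower in KO, and under 0.1 it was 17 and 16. A deposited unadjusted p under 0.05 over all 99 members gave 17 and 16. The calls over all genes at these other limits were not computed. Whether the shift between directions is particular to the members is therefore not known. In limma 19 were higher and 15 lower, and the alternatives gave 16 to 22 higher and 12 to 16 lower, except for total-read scaling (30 higher, 6 lower) and single libraries left out (0 to 20 higher, 0 to 18 lower, with 0 in each direction, and 0 over all genes, without KO library A or KO library B). Without a trend 6 of the 28 deposited calls were lost (Ccl2, Cxcl14, Cxcl16, Il15ra, Il17rb and Il18bp), without a filter on low counts Ccl2 (adjusted p = 0.0534), and without WT library B Cxcl16; the cause was not tested. No called member reversed under any of these alternatives. Calls over all genes also moved with the setting: of 14073 genes, limma called 3566 higher and 3371 lower. Upper-quartile scaling gave 4112 and 2866, a pseudocount of 5 gave 3637 and 3410, and no trend gave 3002 and 2616. Total-read scaling gave 8254 and 1064.

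Signs changed only in uncalled members. Of those with a mean of at least 50, the log2 change with total-read scaling was 0.78 for Ccl6, 0.34 for Il11ra2, 0.89 for Il13ra1, 0.70 for Il17rc and 0.12 for Il1rn, and with upper-quartile scaling 0.094 for Ccl6, 0.21 for Il13ra1 and 0.016 for Il17rc. Below that mean, total-read scaling also turned Ccl24, Ccl27a, Ccl27b, Cxcl10, Il10ra, Il16, Il18r1, Il18rap, Il1b and Il7 positive. Limma gave Cxcl9 -0.063, also with a mean of at least 10, without a filter, without a trend and with a pseudocount of 0.5, and -0.059 with a pseudocount of 5. It gave Il13ra1 0.075 in the same settings, 0.076 with a pseudocount of 0.5 and 0.071 with a pseudocount of 5. With single libraries left out, Ccl6 lay between -0.29 and 0.22, Cxcl9 between -0.54 and 0.42 (-0.0066 and -0.12 without WT library A or B) and Il13ra1 between -0.59 and 0.74 (0.011 and 0.14 without KO library A or B). The number of members with a peak stayed at 12 (KO) and 5 (WT) with matching by position. Limits of 0.01 on the authors' peak p and 4 on the enrichment could not change it, because every member peak met them. The highest such p was 0.00266 in KO and 3.18e-05 in WT, and the lowest enrichment was 4.04 in KO and 5.83 in WT. Also when at least 0.5 of the shorter peak had to be shared, 9 KO and 14 WT member peaks overlapped the other list.

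No paired analysis was possible because the recovered libraries carry no replicate number, so the planned replicate block was not run. Counts under 10 in 43 of 99 members limit what was detectable, and 2 libraries per genotype limit every call.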
